A study of Mus musculus with 15 samples.

Results

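The transcripts of 9 mouse genes for AU-rich element binding proteins were followed through an RNA immunoprecipitation experiment: Zfp36, Zfp36l1, Zfp36l2, Elavl1, Khsrp, Hnrnpd, Tia1, Tial1 and Celf1. They were taken by symbol, for the known function of their proteins, from a table of 25239 genes. Earlier results of these data were known when they were chosen. All 9 passed the filter on low counts that left 17835 genes for testing. The RNA came from ST2 cells, a mouse bone marrow stromal line, fixed with formaldehyde and precipitated with an antibody against Arid5a or with mouse IgG2b (the IgG RIP), which is the control for unspecific recovery. The 15 libraries formed 4 groups, with no genetic change stated for any of them: Arid5a RIP after IL-17 at 200 ng/mL for 3 h (4 libraries), IgG RIP after the same IL-17 treatment (3, numbered 2 to 4), Arid5a RIP from cells in medium (4) and IgG RIP from cells in medium (4). All come from 1 cell line. No library of unprecipitated RNA was analysed here, so a transcript's abundance in the cells and its recovery in a precipitate cannot be told apart within 1 group. In such bulk samples fewer cells with a transcript and less of it per cell cannot be told apart either. The labels do not say that replicates are separate cultures, so p-values measure the spread between these libraries, which may be technical.

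AU-rich elements are stretches rich in A and U in the 3′ untranslated regions of many short-lived mRNAs, among them those of cytokines, growth factors and early response genes. Proteins that bind them influence how long such an mRNA lasts and how well it is translated. The tristetraprolin family (Zfp36, Zfp36l1 and Zfp36l2) recruits the CCR4-NOT deadenylase and brings the mRNA to decay. Khsrp (KSRP), Hnrnpd (AUF1) and Celf1 (CUGBP1) are also known mainly as decay factors, Elavl1 (HuR) is known to stabilise its targets, and Tia1 with Tial1 (TIAR) are known to silence translation. IL-17 is a cytokine that prolongs the life of chemokine mRNAs in stromal cells, and Arid5a is an RNA-binding protein known to stabilise inflammatory mRNAs.

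The promoters of 3 of the genes are shown because of how their transcripts stand in the results below: Zfp36 belongs to the early response genes in many cells but was not called after IL-17, Elavl1 was the member called higher after IL-17, and Khsrp had the smallest p of the 9 between the precipitates after IL-17. They come from the RefSeq promoter table of GRCm38.p6, which held 8 of the 9 genes and gives 250 bases before a transcript start of each gene. For Zfp36 and Khsrp that start is the edge of the gene model. For Elavl1 it lies 40 bases inside the model, so the 210 bases outside the model are shown. Capitals mark matches on either strand to any of 5 motifs. The letters GGGCGG stand for the GC box and TGANTCA for the AP-1 site. The core promoter element was searched as TATAAA, and the fourth motif as the letters of its name, the CCAAT box. The last motif was the NF-kB consensus.
Zfp36 (chr7:28379229-28379478, minus strand): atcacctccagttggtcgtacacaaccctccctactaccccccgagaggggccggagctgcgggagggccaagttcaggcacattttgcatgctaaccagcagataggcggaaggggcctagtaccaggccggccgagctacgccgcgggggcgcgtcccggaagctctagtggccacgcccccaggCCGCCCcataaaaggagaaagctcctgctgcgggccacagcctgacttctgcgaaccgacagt
Elavl1 (chr8:4325141-4325350, minus strand): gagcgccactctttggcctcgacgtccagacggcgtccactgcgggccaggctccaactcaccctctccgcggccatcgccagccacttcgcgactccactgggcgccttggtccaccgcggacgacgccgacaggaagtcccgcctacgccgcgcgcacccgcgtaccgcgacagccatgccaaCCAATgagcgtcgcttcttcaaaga
Khsrp (chr17:57031508-57031757, minus strand): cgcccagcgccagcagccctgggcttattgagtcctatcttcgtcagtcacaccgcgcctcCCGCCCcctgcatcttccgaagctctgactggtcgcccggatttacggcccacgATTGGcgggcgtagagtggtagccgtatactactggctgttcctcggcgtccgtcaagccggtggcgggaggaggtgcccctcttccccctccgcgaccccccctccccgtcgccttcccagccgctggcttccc
The Zfp36 promoter held 1 GC box, with its first base at position -63 from the table's start, and the Khsrp promoter held 1 GC box at -189 and 1 CCAAT box at -135. The Elavl1 window held 2 CCAAT boxes, at -65 and -34, of which the one at -34 lies inside the gene model, and no GC box. Over all 32851 windows of 250 bases in the table, 32.74% held a GC box, 33.85% a CCAAT box, 12.37% the core promoter element, 6.749% the AP-1 site and 3.899% the NF-kB consensus. The NF-kB consensus was found in none of the 8 genes' windows, and the AP-1 site and the core promoter element were found in that of Zfp36l1 alone. Such matches describe letters only, and nothing was measured at these promoters.

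The libraries held between 939139 and 5713913 counts, with the smallest total in IgG medium 2. Within groups the 21 library pairs had a Pearson r of log2 CPM between 0.818 and 0.968 across genes, and all differed by more than counting noise (chi-square per degree of freedom 3.66 to 19.2). The 10 stromal markers summed to 28820 to 41640 CPM per library, against 7.86 to 21.0 for 8 leukocyte, 7.97 to 69.6 for 5 epithelial, 6.22 to 48.7 for 5 endothelial and 0.629 to 8.99 for 4 erythroid markers, with Hbb-bs at 0 in all 15. The transcript of Arid5a itself stood at 19.8 ± 12.1 CPM in Arid5a IL-17, 22.1 ± 2.81 in IgG IL-17, 15.4 ± 4.10 in Arid5a medium and 15.7 ± 6.11 in IgG medium libraries (SD, n = 4, 3, 4 and 4). It was not called in any comparison, and it does not check the antibody, which binds the protein. The 1485 genes of olfactory and vomeronasal receptors, not known to be used by stromal cells, took up differing shares of the libraries: 1404 to 1801 CPM in Arid5a IL-17 1 to 3 with 4048 in Arid5a IL-17 4, 2359 to 3361 in IgG IL-17, 3224 to 4759 in Arid5a medium and 1979 to 3077 in IgG medium. This measure moves with the groups and with Arid5a IL-17 4, and its part in the results below was not tested.

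All 9 transcripts were present in every library, and their order of abundance was led by the decay factors. On the FPKM scale, which corrects for gene length, Zfp36l2 stood at 131 ± 16.2 in Arid5a IL-17, 115 ± 21.2 in IgG IL-17, 115 ± 9.36 in Arid5a medium and 155 ± 17.5 in IgG medium libraries (SD, n = 4, 3, 4 and 4). Hnrnpd came next at group means of 68.7 to 73.1 FPKM, and these 2 genes overlapped with no other in any group. Khsrp followed at means of 38.02 to 47.1, Celf1 at 26.6 to 36.6 and Elavl1 at 19.3 to 26.7 FPKM. The order of these 3 means was the same in all 4 groups, but libraries of Khsrp and Celf1 overlapped in both IgG groups, and those of Celf1 and Elavl1 in Arid5a IL-17 and IgG medium. Zfp36l1 stood at means of 17.6 to 19.96, overlapping Elavl1 in 3 groups, and Tial1 at 10.6 to 13.8 FPKM. Tia1 at 6.17 to 8.56 and Zfp36 at 6.79 to 11.1 FPKM were the lowest, except that Tial1 lay between them in IgG medium. Which of the pair was lower changed between groups.

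**Figure D1:**
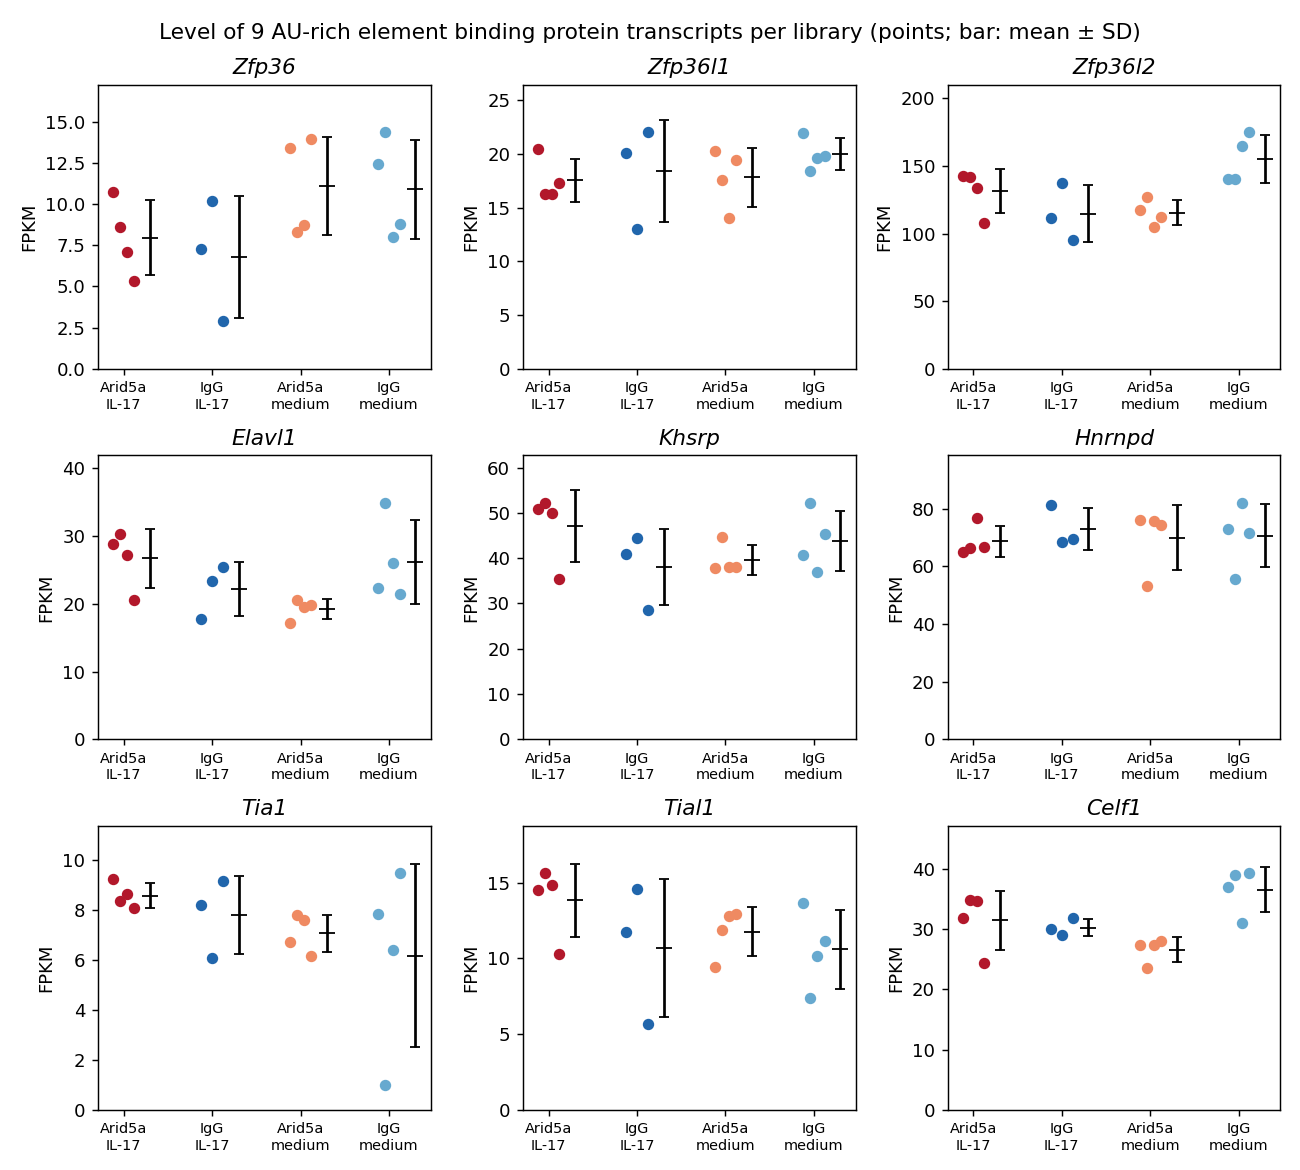
FPKM of each of the 9 transcripts (vertical axes, each starting at 0) in the 4 groups; points are libraries and bars the mean ± SD. Zfp36l2 lies near or above 100 in all libraries, Zfp36 and Tia1 lie under 15, and Tia1 in IgG medium 2 stands at 1.00.

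Within the tristetraprolin family, Zfp36l2 made up most of the family's FPKM in every library. Its share was 83.7 ± 1.62% in Arid5a IL-17, 81.7 ± 3.36% in IgG IL-17, 80.0 ± 3.03% in Arid5a medium and 83.2 ± 2.97% in IgG medium libraries (SD, n = 4, 3, 4 and 4). Zfp36, which encodes tristetraprolin itself, held 5.00 ± 0.902% in Arid5a IL-17, 4.66 ± 2.04% in IgG IL-17, 7.69 ± 1.90% in Arid5a medium and 5.98 ± 2.06% in IgG medium libraries. Among the 9 genes Zfp36l2 held 32.8 to 43.5% and Hnrnpd 15.3 to 24.7% of the summed FPKM per library. The sum itself was 353 ± 38.3 FPKM in Arid5a IL-17, 322 ± 28.8 in IgG IL-17, 319 ± 8.42 in Arid5a medium and 380 ± 17.2 in IgG medium libraries. Tial1 exceeded Tia1 on this scale in 14 of 15 libraries, and the group medians of the ratio within a library lay between 1.44 and 1.67. IgG medium 2 was far off at 7.37, where Tia1 had 4 counts.

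**Figure D2:**
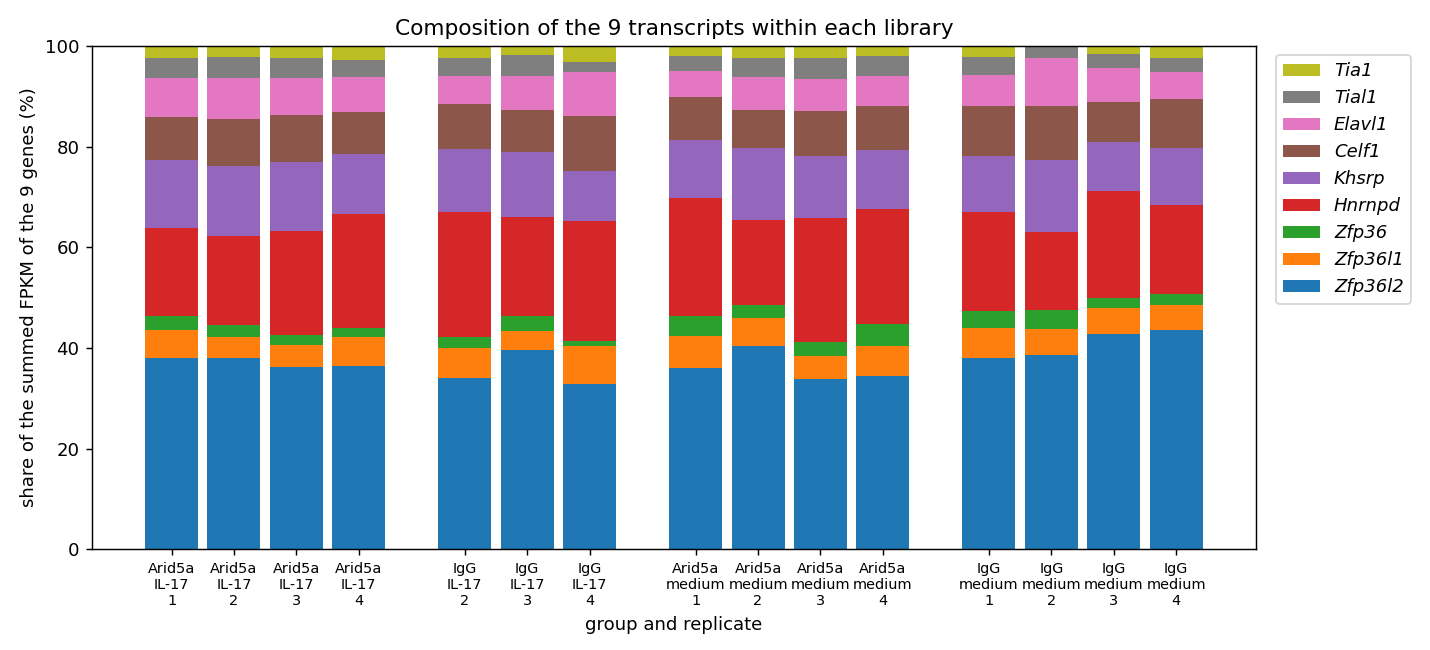
Share of the summed FPKM of the 9 genes (%, vertical axis) taken by each gene in each library, grouped by precipitate and treatment. Zfp36l2 is the largest block in all 15 bars, at 32.8 to 43.5%.

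The comparison of the Arid5a RIP with the IgG RIP in medium asks which transcripts the Arid5a antibody recovered more or less than the control before stimulation. All 9 estimates were below 0, none of the 9 was called higher in the Arid5a RIP, and 2 were called lower, Zfp36l2 and Celf1. Over all tested genes 0.0561% were called higher and 0.572% lower (an adjusted p below 0.05 in edgeR's quasi-likelihood test over all tested genes). Zfp36l2 had 377, 374, 307 and 353 CPM in Arid5a medium libraries 1 to 4, against 475, 492, 602 and 562 CPM in IgG medium libraries 1 to 4. All 4 Arid5a libraries lay below all 4 IgG libraries, with a log2 fold change of -0.60 ± 0.14 (SE, edgeR adjusted p = 0.0399, 95% interval -0.88 to -0.31). Celf1 had 128, 107, 125 and 133 CPM in Arid5a medium, against 182, 220.1, 172 and 189 CPM in IgG medium libraries. Its groups did not overlap either, at a log2 fold change of -0.62 ± 0.15 (edgeR adjusted p = 0.0470).

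Elavl1 was as far below IgG in medium on the log2 scale but did not pass the test. It had 96.1, 106, 99.7 and 109 CPM in Arid5a medium, against 132, 215, 167 and 121 CPM in IgG medium libraries 1 to 4. The groups did not overlap, and IgG medium 2, the library with the fewest counts, was the highest, at a log2 fold change of -0.60 ± 0.18 (edgeR adjusted p = 0.115). DESeq2 called Elavl1 as lower too (adjusted p = 0.0444), as it did 327 of all tested genes, where edgeR called 102. Khsrp groups did not overlap either, with 127 to 150 CPM in Arid5a medium and 154 to 209 CPM in IgG medium, at -0.30 ± 0.16 (adjusted p = 0.433 by edgeR). The other 5 overlapped between the groups, with log2 fold changes from -0.33 (Zfp36l1) to -0.05 (Tia1 and Tial1) and adjusted p of 0.526 or more. The interval of Hnrnpd, the next most abundant member, ran from -0.48 to 0.10 and that of Zfp36 from -0.87 to 0.69. The share of all tested genes without overlap between groups was not counted in any comparison. Groups that do not overlap are therefore given as a description of these libraries only.

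These values are read beside a shift of abundant genes. Under the scaling used here (TMM, trimmed mean of M values) the 5394 well-expressed genes, those whose log2 CPM averaged 5 or more, had a median of -0.19 in this comparison and all tested genes one of 0.04, beside a median of -0.30 over the 9 members. With factors taken from well-expressed genes, Zfp36l2 stood at -0.42 ± 0.11 (edgeR adjusted p = 0.176) and Celf1 at -0.45 ± 0.13 (adjusted p = 0.176). Neither passed the test then, where 0 of all 17835 tested genes were called higher and 0 lower. Before adjustment 3 members had a p below 0.05, beside 2065 of all tested genes. The members' median was then -0.12, and Zfp36, Tia1 and Tial1 stood above 0. The receptor-gene counts moved with this comparison as well, at a median of 3683 CPM in Arid5a medium and 2080 in IgG medium libraries. Stromal marker sums were lower without overlap, at 28820 to 34440 CPM in Arid5a medium and 35510 to 38340 in IgG medium libraries. The part of these measures in the calls was not tested. Both calls held without Arid5a IL-17 4, IgG IL-17 3, IgG IL-17 4 or IgG medium 1. Both were lost without any 1 of the other 11 libraries, with Zfp36l2 between -0.63 and -0.52 and Celf1 between -0.67 and -0.54 in those fits. Over all tested genes 0 to 102 were called lower in the fits that lost both calls. In the fits that held them 98 to 313 were called lower.

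After IL-17, the Arid5a RIP and the IgG RIP did not differ past the test for any of the 9 transcripts, while all 9 estimates were above 0. Over all tested genes 0.0561% were called higher and 0.0112% lower. By edgeR 1 member, Khsrp, had an unadjusted p below 0.05, beside 1596 of all 17835 tested genes. DESeq2 called 0 members and limma voom called Elavl1 as higher, as it did 271 of all tested genes. Khsrp had 215, 217, 205 and 129 CPM in Arid5a IL-17 libraries 1 to 4, against 151, 163 and 115 CPM in IgG IL-17 libraries 2 to 4. Arid5a IL-17 1 to 3 lay above all IgG libraries and Arid5a IL-17 4 lay among them, at a log2 fold change of 0.42 ± 0.17 (SE, edgeR adjusted p = 0.458). Zfp36l2 had 525, 516, 478 and 343 CPM in Arid5a IL-17, against 362, 438 and 336 CPM in IgG IL-17 libraries. It showed the same arrangement, with Arid5a IL-17 4 among the IgG libraries and the other 3 above them (0.30 ± 0.15, adjusted p = 0.562 by edgeR).

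The remaining members all overlapped between the precipitates after IL-17. Their log2 fold changes were 0.49 ± 0.25 for Tial1, 0.38 ± 0.19 for Elavl1, 0.31 ± 0.42 for Zfp36, 0.22 ± 0.31 for Tia1 and 0.16 ± 0.16 for Celf1, and 0.02 and 0.01 for Hnrnpd and Zfp36l1. The 95% intervals ran from -0.30 to 0.33 for Hnrnpd and from -0.01 to 0.77 for Elavl1. The members' median was 0.30, beside 0.15 for well-expressed genes and -0.01 for all tested genes. Factors from well-expressed genes put it at 0.12 and left 6 of the 9 estimates above 0, none of them with an unadjusted p below 0.05. Over all 17835 tested genes 1438 had such a p then, and 0 were called.

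The difference between these log2 fold changes, with IL-17 minus in medium, asks whether the balance between the precipitates moved with stimulation. It was tested in the same fit and uses all 4 groups, so it shares its libraries with each of the other comparisons. Zfp36l2 alone among the 9 was called, as a gain of 0.90 ± 0.21 (SE, edgeR adjusted p = 0.0263, 95% interval 0.48 to 1.31), where 0.869% of all tested genes were called as gains and 0.107% as losses. Its mean CPM was 465 ± 84.1 in Arid5a IL-17 and 378 ± 53.2 in IgG IL-17 libraries (SD, n = 4 and 3), and 353 ± 32.6 in Arid5a medium and 533 ± 59.8 in IgG medium libraries (n = 4 each). Of the differences that make up this change, the one between precipitates in medium passed the test, while that between precipitates after IL-17 (adjusted p = 0.562 by edgeR) and that with IL-17 in the IgG RIP (0.153) did not. Stromal marker sums turned between the precipitates in the same way, with medians of 40240 CPM in Arid5a IL-17 and 33710 in IgG IL-17 libraries, and of 30690 in Arid5a medium and 36700 in IgG medium libraries. Receptor-gene counts turned the opposite way, with medians of 1737 CPM in Arid5a IL-17 and 3237 in IgG IL-17, and of 3683 in Arid5a medium and 2080 in IgG medium libraries. Their part in the gain was not tested.

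Elavl1 had the larger estimate, 0.98 ± 0.26, and missed the test (edgeR adjusted p = 0.0547). Celf1 followed at 0.78 ± 0.22 (adjusted p = 0.0720 by edgeR) and Khsrp at 0.72 ± 0.24 (adjusted p = 0.116). These 4 were the members with an unadjusted p below 0.05, beside 2905 of all 17835 tested genes. The other 5 members lay between 0.21 (Hnrnpd) and 0.54 (Tial1). The median of the 9 was 0.54, that of well-expressed genes 0.34 and that of all tested genes -0.05. With factors from well-expressed genes Zfp36l2 stood at 0.55 ± 0.17 (edgeR adjusted p = 0.171). No member was called then, where 0 of all tested genes were called as gains and 0 as losses. Hnrnpd and Tia1 fell below 0. Under this scaling 3 members had an unadjusted p below 0.05, beside 2592 of all tested genes. Without Arid5a IL-17 4, the library in which all 9 transcripts had the lowest CPM of their group, Zfp36l2, Elavl1, Khsrp and Celf1 were all called as gains (0.86 to 1.12). Of all 17608 genes tested in that fit 506 were called as gains and 209 as losses, beside 155 and 19 with all libraries. Zfp36l2 was not called in 9 of the 15 fits without 1 library (Arid5a IL-17 1, 2 or 3, IgG IL-17 2 or 4, Arid5a medium 2, 3 or 4, or IgG medium 3), with estimates of 0.82 to 0.92 in those. Over all tested genes 0 to 87 were called as gains in those 9 fits, and 129 to 506 in the others.

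**Figure D3:**
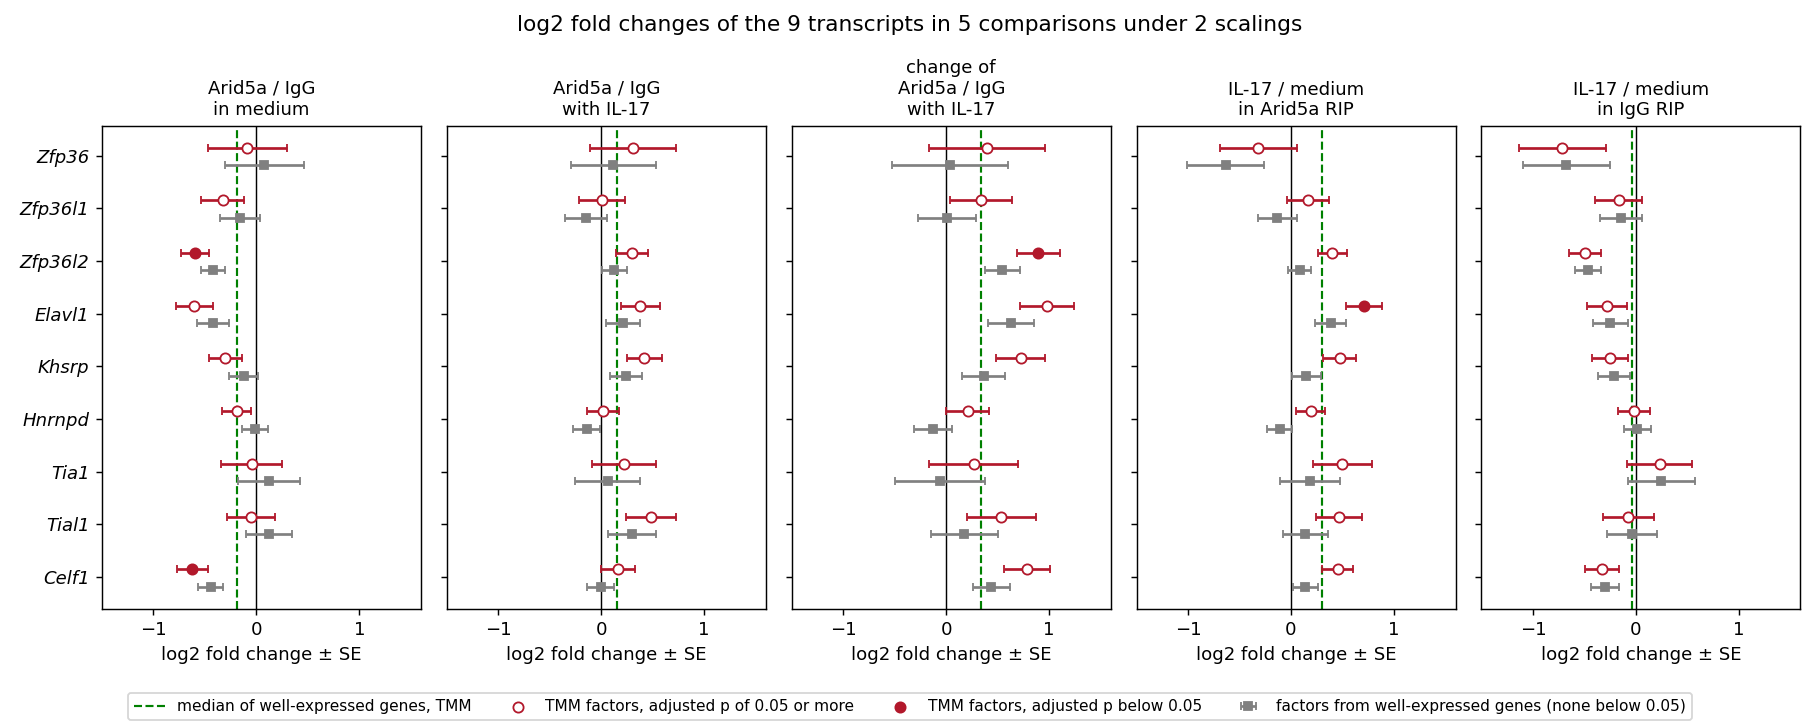
Log2 fold change ± SE of the 9 transcripts (rows) in the 5 comparisons (panels), under TMM factors (circles, filled where the edgeR adjusted p is below 0.05) and under factors from well-expressed genes (squares). The dashed line is the median of well-expressed genes under TMM; the filled circles are Zfp36l2 and Celf1 in medium, Zfp36l2 in the change, and Elavl1 in the Arid5a RIP.

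Within the Arid5a RIP, the comparison of IL-17 with medium asks how the recovered transcripts changed on stimulation. Elavl1 rose, and none of the other 8 passed the test, where 4.84% of all tested genes rose and 0.813% fell. Elavl1 had 188, 196, 171 and 115 CPM in Arid5a IL-17 libraries 1 to 4, against 96.1, 106, 99.7 and 109 CPM in Arid5a medium libraries 1 to 4. All 4 IL-17 libraries were above all 4 medium libraries, with Arid5a IL-17 4 the closest to them, at a log2 fold change of 0.71 ± 0.18 (SE, edgeR adjusted p = 0.0134). Tia1, which had 32.6 to 43.4 CPM in Arid5a IL-17 and 24.9 to 29.3 CPM in Arid5a medium, did not overlap either but missed the test at 0.50 ± 0.29 (adjusted p = 0.301 by edgeR).

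Of the genes for decay factors only Zfp36 lay below 0. Khsrp stood at 0.47 ± 0.16 (edgeR adjusted p = 0.0717), Celf1 at 0.46 ± 0.15 (0.0657) and Zfp36l2 at 0.40 ± 0.14 (0.0816), and each overlapped between treatments only through Arid5a IL-17 4. Tial1, at 0.46 ± 0.22 (adjusted p = 0.218), was the remaining member with an unadjusted p below 0.05. Over all 17835 tested genes 3972 had such a p. Zfp36 had 18.03, 14.1, 11.7 and 7.93 CPM in Arid5a IL-17, against 20.2, 11.6, 12.04 and 20.7 CPM in Arid5a medium libraries 1 to 4. It was the one member with an estimate below 0, at -0.32 ± 0.38 (95% interval -1.08 to 0.44), and its libraries overlapped across most of their range at 28 to 86 counts each.

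The median of the 9 in this comparison was 0.46, beside 0.30 for well-expressed and -0.12 for all tested genes. With factors from well-expressed genes 115 of all tested genes rose and 206 fell. Elavl1 stood at 0.39 ± 0.15 then (edgeR adjusted p = 0.154). It alone of the 9 had an unadjusted p below 0.05 then, beside 3799 of all 17835 tested genes. The members' median was 0.14, and Zfp36l1 and Hnrnpd joined Zfp36 below 0. Without Arid5a IL-17 4, Elavl1 stood at 0.84 and Zfp36l2, Khsrp and Celf1 were called with it, as they were without IgG IL-17 3 or without IgG IL-17 4. Khsrp and Celf1 were also called with it without IgG medium 2. Of all tested genes 863 rose and 145 fell with all libraries, against 1498 and 759 without Arid5a IL-17 4. The counts were 1112 and 141 without IgG IL-17 3, 1249 and 252 without IgG IL-17 4, and 1390 and 432 without IgG medium 2. Elavl1 was not called without Arid5a IL-17 1, Arid5a IL-17 2 or Arid5a medium 1, at 0.62 to 0.68. Of all tested genes 321, 296 and 495 rose in these fits, in that order. Stromal marker sums moved the same way, with medians of 40240 CPM in Arid5a IL-17 and 30690 in Arid5a medium libraries, and receptor-gene counts the opposite way, at 1737 CPM in Arid5a IL-17 and 3683 in Arid5a medium libraries. The sums of leukocyte markers did not overlap, at 8.04 to 10.5 CPM in Arid5a IL-17 and 16.5 to 21.0 in Arid5a medium. Endothelial markers had medians of 16.3 CPM in Arid5a IL-17 and 39.7 in Arid5a medium libraries, and epithelial markers 11.4 in Arid5a IL-17 and 28.4 in Arid5a medium. Their part in the result was not tested.

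Within the IgG RIP none of the 9 transcripts was called after IL-17 by edgeR, where 0.258% of all tested genes rose and 0.235% fell. By edgeR 1 member, Zfp36l2, had an unadjusted p below 0.05, beside 1988 of all 17835 tested genes. Limma voom called 0 members, and DESeq2 called Zfp36l2 as lower, as it did 205 of all tested genes. Zfp36l2 had 362, 438 and 336 CPM in IgG IL-17 libraries 2 to 4, against 475, 492, 602 and 562 CPM in IgG medium libraries 1 to 4. The groups did not overlap, at a log2 fold change of -0.49 ± 0.15 (SE, edgeR adjusted p = 0.153, 95% interval -0.80 to -0.18). Celf1 did not overlap either, with 145, 142 and 167 CPM in IgG IL-17 and 172 to 220.1 CPM in IgG medium, at -0.33 ± 0.17 (adjusted p = 0.462 by edgeR). The widest estimate was that of Zfp36, with 11.1, 15.1 and 4.79 CPM in IgG IL-17, against 19.9, 23.6, 13.7 and 13.1 CPM in IgG medium libraries, at -0.71 ± 0.43 (adjusted p = 0.562 by edgeR).

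Tia1 was the one member above 0 in the IgG RIP, at 0.23 ± 0.32, and this value rests on IgG medium 2, where it had 4.49 CPM against 28.2 to 39.1 CPM in the other IgG medium libraries. The others were Elavl1 at -0.28, Khsrp at -0.25, Zfp36l1 at -0.17, Tial1 at -0.07 and Hnrnpd at -0.02. The members' median was -0.25, beside -0.04 for well-expressed and 0.00 for all tested genes, and -0.21 with factors from well-expressed genes, where Hnrnpd was above 0 too. Over the 4 other scalings this median lay between -0.25 and -0.19. Zfp36 was thus below 0 after IL-17 in both precipitates, which share no library in these comparisons, with no call in either.

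**Figure D4:**
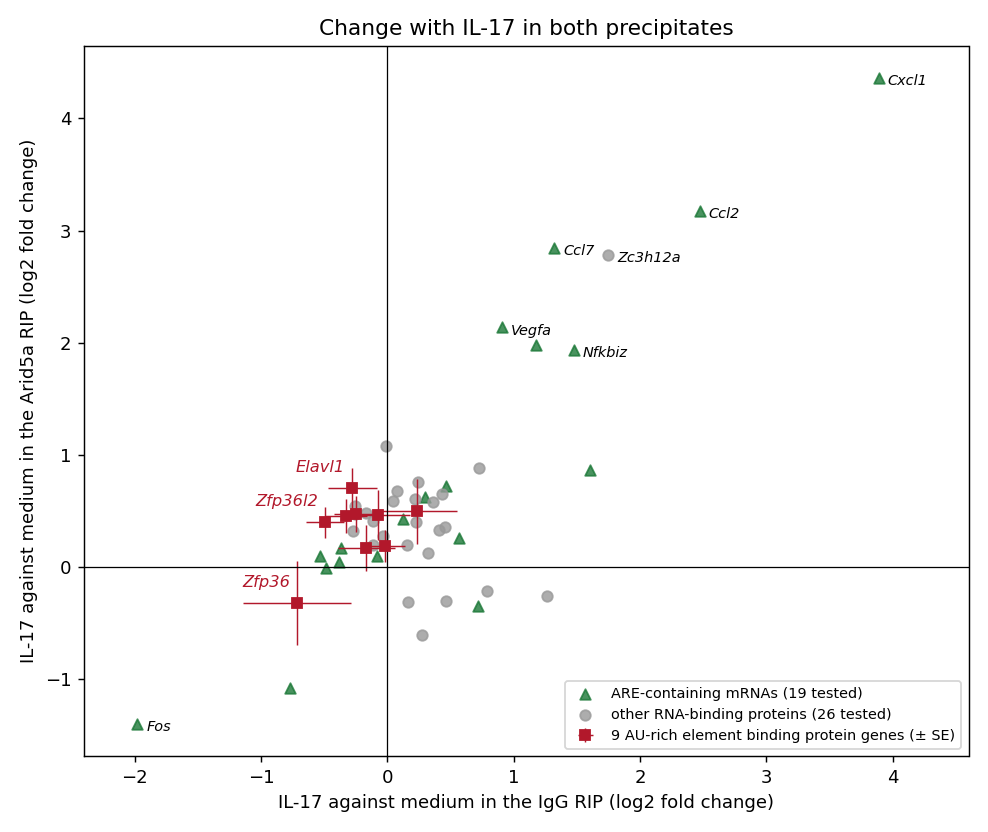
Log2 fold change with IL-17 against medium in the IgG RIP (horizontal axis) and in the Arid5a RIP (vertical axis) for the 9 genes (squares, ± SE), the other tested members of a list of ARE-containing mRNAs (triangles) and other RNA-binding proteins (circles). The 9 genes lie within 1 unit of 0 on both axes, while Cxcl1, Ccl2, Ccl7 and Zc3h12a lie above 1 on both.

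IL-17 raised chemokine transcripts among the mRNAs that such proteins are known to act on, in both precipitates. Of 26 listed mRNAs known to carry AU-rich elements 20 were tested, Zfp36 among them. The list was drawn up with earlier results of these data known. Its counts therefore describe the listed genes and not such mRNAs as a class, and the same holds for the lists that follow. With IL-17, 8 rose and 1 fell in the Arid5a RIP, and 5 rose and 1 fell in the IgG RIP, beside the shares of all genes given above. The neutrophil chemokine Cxcl1 rose by 4.36 ± 0.28 in the Arid5a RIP and 3.89 ± 0.28 in the IgG RIP, and the monocyte chemokine Ccl2 by 3.17 ± 0.18 and 2.47 ± 0.19 (log2, SE). Ccl7, another monocyte chemokine, rose by 2.85 ± 0.18 in the Arid5a RIP and 1.32 ± 0.19 in the IgG RIP, and the growth factor Vegfa by 2.14 ± 0.17 and 0.91 ± 0.18 there. Nfkbiz, a cofactor of NF-kB, rose by 1.94 ± 0.20 in the Arid5a RIP and 1.48 ± 0.21 in the IgG RIP. The one that fell in both was Fos, an early response transcription factor gene, named after its values were seen. It stood at -1.40 ± 0.40 in the Arid5a RIP and -1.98 ± 0.47 in the IgG RIP. Fos had 3 to 40 counts in IgG IL-17 and 7 to 170 in IgG medium libraries, and these groups overlapped in CPM. The edgeR adjusted p of the genes named here ranged from 5.37e-15 for Ccl2 in the Arid5a RIP to 0.0387 for Fos in the IgG RIP. With factors from well-expressed genes 6 rose and 1 fell in the Arid5a RIP, where 115 of all tested genes rose and 206 fell. In the IgG RIP 5 rose then, where 60 of all tested genes rose. The call of Fos in the IgG RIP was lost (edgeR adjusted p = 0.0553).

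In the other comparisons, Ccl7 (-0.94 ± 0.19) and Vegfa (-0.84 ± 0.17) were lower in the Arid5a RIP in medium and both gained with IL-17 (1.53 ± 0.26 and 1.23 ± 0.25), and none of the 20 was called by edgeR or DESeq2 between the precipitates after IL-17 (2 at an unadjusted p below 0.05 by edgeR, and 1 called by voom). None of these 4 calls was left with factors from well-expressed genes, where 4 of the 20 in medium and 2 in the change had an unadjusted p below 0.05. Over all 17835 tested genes 2065 and 2592 had such a p under that scaling, and 0 were called in either comparison. After IL-17, 1596 of all tested genes had such a p by edgeR under TMM, and voom called 271 higher. Il6, Csf2, Csf3, Cxcl2, Icam1 and Il1b did not pass the filter on low counts. The list's median with IL-17 was 0.34 in the Arid5a RIP, beside 0.30 for well-expressed genes, and 0.38 in the IgG RIP, beside -0.04. Under scaling on well-expressed genes that median became 0.03 in the Arid5a RIP and 0.40 in the IgG RIP.

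Among 27 genes for other RNA-binding proteins of mRNA stability and translation 26 were tested. In the Arid5a RIP 11 of them rose with IL-17 and none fell by edgeR, where 4.84% of all tested genes rose and 0.813% fell. By DESeq2 12 rose and 0 fell, where 804 of all 17835 tested genes rose and 563 fell. By voom 19 rose and 2 fell, where 3372 of all tested genes rose and 4125 fell. The smallest p were those of the RNase gene Zc3h12a (Regnase-1) at 2.79 ± 0.26, Rc3h1 (Roquin-1) at 0.89 ± 0.15, whose proteins are known to recognise stem-loops and not AU-rich elements, and of Hnrnpa2b1 at 0.76 ± 0.13 and Hnrnpa1 at 1.08 ± 0.19 (edgeR adjusted p 2.34e-09 to 8.68e-04). In the IgG RIP Zc3h12a (1.75 ± 0.27) and Rc3h1 (0.72 ± 0.17) rose, where 0.258% of all tested genes rose, and no other was called by edgeR. It called none in medium, after IL-17 or in the change, with 6, 8 and 10 at an unadjusted p below 0.05. Over all 17835 tested genes 2279, 1596 and 2905 had such a p. DESeq2 called 3, 1 and 1 of the list there and voom 0, 5 and 7. Of all tested genes DESeq2 called 21 higher and 327 lower in medium, 42 higher after IL-17 and 242 gains. Voom called 271 higher after IL-17 and 938 gains. With factors from well-expressed genes, 4 of the 11 and both in the IgG RIP were still called. Of all tested genes 115 rose in the Arid5a RIP and 60 in the IgG RIP under that scaling. The list's median was 0.41 in the Arid5a RIP, where that of well-expressed genes was 0.30, and 0.22 in the IgG RIP. Under scaling on well-expressed genes that median became 0.11 in the Arid5a RIP and 0.25 in the IgG RIP.

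All 40 genes for deadenylation and decay effectors were tested. Outside the Arid5a RIP none was called by edgeR in the other 4 comparisons, with 5 to 10 at an unadjusted p below 0.05. Over all 17835 tested genes 1596 to 2905 had such a p there. In those 4, DESeq2 called 1 (lower in medium), and voom 1 in medium, 2 after IL-17 and 5 gains. Of all tested genes DESeq2 called 327 lower in medium, and voom 118 lower in medium, 271 higher after IL-17 and 938 gains. With IL-17 in the Arid5a RIP, DESeq2 called 4 and voom 18 as rising, beside 804 and 3372 of all tested genes. By edgeR 5 rose there, where 4.84% of all tested genes rose. The 5 were the poly(A) binding protein gene Pabpc1 (0.56 ± 0.12), the exosome genes Dis3 (0.61 ± 0.16) and Exosc1 (0.94 ± 0.28), Cnot1 (0.46 ± 0.14), the scaffold of CCR4-NOT, and Btg1 (0.49 ± 0.15), named after its values were seen. None of the 5 was called with factors from well-expressed genes, where 2 of the 40 had an unadjusted p below 0.05, beside 3799 of all tested genes. That scaling called 115 of all tested genes as rising in the Arid5a RIP and 206 as falling. The 18 genes of p38, MK2 and 14-3-3 control, the pathway that phosphorylates tristetraprolin and shields it, held 14-3-3 genes among their calls. In medium Ywhae (-0.79 ± 0.15), Ywhaz (-0.74 ± 0.14) and Ywhah (-0.70 ± 0.16) were lower in the Arid5a RIP, where 0.572% of all tested genes were lower. Ywhaz (1.11 ± 0.21) and Ywhae (0.90 ± 0.22) gained with IL-17, where 0.869% of all tested genes gained, and Ywhaz (0.59 ± 0.14) and the kinase gene Prkcd (0.74 ± 0.21) rose in the Arid5a RIP, beside the 4.84% of all tested genes. By edgeR and voom none was called between the precipitates after IL-17 or in the IgG RIP, where DESeq2 called 0 and 1. Before adjustment edgeR had 2 and 4 with a p below 0.05, beside 1596 and 1988 of all 17835 tested genes. DESeq2 called 205 of all tested genes lower in the IgG RIP. None of the edgeR calls was left with factors from well-expressed genes. That scaling called 0 of all tested genes in medium and 0 in the change, and the counts given above in the Arid5a RIP. Under it 3 to 6 of the 18 had an unadjusted p below 0.05 in the 3 comparisons with calls. Over all tested genes 2065 to 3799 had such a p there.

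Across the 15 libraries Zfp36l2, Khsrp, Celf1 and Elavl1 varied together on the log2 CPM scale, as a description of libraries that share groups and scaling. They are also the members with an unadjusted p below 0.05 in the change. The r over all pairs of well-expressed genes was not taken as a background. Pearson's r was 0.82 for Elavl1 with Celf1, 0.75 for Zfp36l2 with Khsrp, 0.74 for Zfp36l2 with Celf1, 0.72 for Elavl1 with Khsrp, 0.68 for Khsrp with Celf1 and 0.66 for Zfp36l2 with Elavl1. Hnrnpd, the next most abundant member after Zfp36l2, was less like them, at 0.43 with Celf1, 0.34 with Zfp36l2, 0.23 with Elavl1 and 0.08 with Khsrp. Members of the tristetraprolin family were less alike, at 0.41 for Zfp36 with Zfp36l2, 0.37 for Zfp36l1 with Zfp36l2 and 0.03 for Zfp36 with Zfp36l1. Tia1 and Tial1, which are close relatives, had 0.39. Among well-expressed genes the transcripts most like Elavl1 were Nckap1 (0.95), Reep3 (0.94) and Atp5b (0.94), those most like Zfp36l2 were Ghr (0.94), Dnajb11 (0.92) and Cav1 (0.91), and those most like Celf1 were Kidins220 (0.94), Cbx5 (0.92) and Pdia3 (0.91). For Khsrp they were Kmt5a (0.93), Qrich1 (0.92) and Scarb2 (0.92), for Hnrnpd Acin1 (0.91), Hnrnpul2 (0.89) and Fip1l1 (0.88), and for Tial1 Elk4 (0.91), Mapk9 (0.89) and Dkc1 (0.88). Zfp36 was closest to Rab31 (0.87), Dynlt1f (0.85) and Arpin (0.85) and Zfp36l1 to Ost4 (0.86), Capns1 (0.82) and Ing1 (0.81). The values of 0.96 to 0.97 for Tia1 with Cacna2d1, Iqgap3 and Simc1 are read beside its low count in IgG medium 2. Models of other genes overlap Hnrnpd (4930524J08Rik and Gm42127) and Tial1 (Gm32816), and the strand setting of the counting is not given in the sources used here, so these 2 transcripts carry that uncertainty.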

How the data were processed

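RNA recovered with an Arid5a antibody or mouse IgG2b from ST2 cells was measured in 15 libraries. The authors deposited expected counts, not normalised, and FPKM (per gene length and mapped total) per gene. Per the submitters' processing notes, the reads were processed on mm10 with tools that include RSEM 1.3.1 and STAR 2.7.9, and also R 4.3.0 with DESeq2 1.36.0. Which tool did which step, which annotation was used and how strand was set is not given in the sources used here. Of 25239 symbols, 99.2% matched RefSeq genes of GRCm38.p6.

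Expected counts were rounded and genes passing filterByExpr (17835) were fitted in R 4.3.3 with edgeR 4.0.16: TMM factors, robust quasi-likelihood, 4 group means over all libraries, Benjamini-Hochberg over all tested genes, threshold 0.05. The common biological coefficient of variation was 0.341. CPM are TMM-scaled, and 95% intervals come from the same fit. The procedure was tested on simulated data. Alternatives used upper-quartile factors, library totals, factors from well-expressed genes, DESeq2 1.42.0, limma 3.58.1 voom, other filters, other sample sets, a replicate block and log2(FPKM + 1) or log2(FPKM + 0.1) with limma.

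Replicate numbers showed little sign of pairing the libraries, though with 3 or 4 libraries per group such a check cannot exclude it. Of 21 same-numbered pairs of different groups 1 had a correlation of deviations above 0.1 (range -0.13 to 0.20, median -0.01). All 9 members are named, up to 4 called genes per list and comparison by smallest p, and the 3 genes most correlated with each member. Members and lists were chosen with earlier results of these data known.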

Additional observations from a re-analysis of the deposited data

Results flagged for a closer look

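In the Arid5a IL-17 group the lowest library stood apart from the other 3 for 3 of the 9 transcripts by Dixon's test on CPM, each time library 4. Khsrp stood at 128.5 CPM there and at 205 to 217 in the others, Tial1 at 41.3 against 67.2 to 72.0, and Celf1 at 120.0 against 179 to 189. Chance alone marks about 1 in 20 groups, and 27 groups of 4 libraries were tested. The 3 flags are not independent, since they come from 1 library. That library also held 4048 CPM on olfactory and vomeronasal receptor genes, beside 1404 to 1801 in the other 3. Its part in the low values was not tested.

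The effect of the precipitate on Zfp36l2 differed between IL-17 and medium by 0.90 on the log2 scale (0.8953 ± 0.2067, SE) in the interaction test of edgeR. It passed the threshold in 11 of the 26 other fits, with a range of 0.55 to 1.03.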

How the results depend on the processing

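No count of called members kept its value under all alternatives. The 2 calls in medium became 0 with upper-quartile factors, library totals, factors from well-expressed genes, only the libraries compared, either FPKM scale, or IgG medium 2 and IgG IL-17 4 left out together, and 1 with no filter. With DESeq2 they became 3, where 327 of all tested genes were lower. Factors from well-expressed genes and either FPKM scale called 0 of all tested genes in medium. Upper-quartile factors called 2 as lower, library totals 5, only the libraries compared 0, and both libraries left out 12. The 0 calls between precipitates after IL-17 became 1 with voom (Elavl1), and the 0 calls in the IgG RIP became 1 with DESeq2 (Zfp36l2). The 1 gain became 0 with upper-quartile factors, library totals, factors from well-expressed genes and either FPKM scale, 2 with no filter or with both libraries left out, and 4 with voom. Under these 3 scalings 0 of all tested genes were called as gains, and 1 on either FPKM scale. The 1 call in the Arid5a RIP became 0 under the same 3 scalings and either FPKM scale, 4 with both libraries left out, 5 with only the libraries compared and 7 with voom. Of all tested genes 202, 156 and 115 rose there under these scalings, in that order, and 17 and 16 on the FPKM scales. Where members gained calls, the calls over all genes grew too. With no filter 191 of 23747 tested genes were gains, and with both libraries left out 208 of 19071. Voom called 938 gains of 17835, where the fit reported called 155. In the Arid5a RIP 1773 rose and 827 fell with both libraries left out, and 1928 and 1049 of 15775 with only the libraries compared. With voom 3372 rose and 4125 fell there, where the fit reported called 863 and 145. Leaving out 1 library gave 0 to 2 calls in medium, 0 to 4 gains, 0 to 4 in the Arid5a RIP, and 0 to 0 after IL-17 and in the IgG RIP. With the replicate block the counts were 0 in medium, 0 gains and 1 in the Arid5a RIP, and 0 in the others. In medium 3 members had an unadjusted p below 0.05 in that fit, beside 2057 of all 17835 tested genes. Of all tested genes that fit called 44 lower in medium, 81 as gains and 692 as rising in the Arid5a RIP. Whether the numbers pair the libraries is not settled. For the gain, a fit on only the libraries compared is the fit reported and was not counted again. Over 1206 member values, 1107 stayed on their side of the threshold, 62 lost and 37 gained a call, and 87 changed sign, all of them called in neither fit. The cause of each change was not tested. Depth limits the low members most: Tia1 had 4 counts in IgG medium 2 and Zfp36 10 in IgG IL-17 4.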
